A study of Homo sapiens with 9 samples.

Results

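The respiratory chain of human mitochondria is assembled from proteins of 2 genomes, and its genes were gathered from both. They are the rows of the count table whose Ensembl ID maps to a protein-coding gene with a symbol that begins with MT-ND, MT-CO, MT-ATP, MT-CYB, NDUFA, NDUFB, NDUFC, NDUFS, NDUFV, UQCR, COX4I, COX5, COX6, COX7, COX8, ATP5F1, ATP5M or ATP5P, together with SDHA, SDHB, SDHC, SDHD and CYC1. This gave 111 of 61487 genes, of which 13 lie on the mitochondrial genome and 98 in the nucleus. The symbols also take in 8 NDUFAF genes, which encode assembly factors of complex I rather than subunits, and 2 readthrough transcripts. The rule itself uses no measured value, but it was set with earlier results of these data known.

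RNA was sequenced from OVCAR4, an ovarian cancer line of the high-grade serous type, in 3 groups of 3 libraries. Inhibitor-treated cells were a Pt-resistant derivative, raised by continuous exposure to cisplatin, that received 5 µM EPZ015666, an inhibitor of the arginine methyltransferase PRMT5, for 5 days. Pt-resistant cells were the same derivative under the solvent DMSO, and naive cells were the parental line, also under DMSO. The labels give all groups as WT, the resistance rests on a single derivative, and replicates were separate wells, so the p-values describe variation among wells and not among independently derived lines.

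Libraries held 14320929 to 19114811 counts. Of 10 markers of serous carcinoma, 9 reached 1 CPM (the count scaled to a common library total after TMM normalisation) in every library, and WT1 stayed under 1 CPM in all of them. These 10 summed to 3140 to 3170 CPM in inhibitor-treated, 3790 to 3920 CPM in Pt-resistant and 3950 to 4210 CPM in naive libraries. The 6 markers of fibroblasts and endothelium summed to 85.4 to 101 CPM in inhibitor-treated, 124 to 129 CPM in Pt-resistant and 136 to 156 CPM in naive libraries, with 2 of them at 1 CPM or more in every library, and the 5 immune markers, none of which reached 1 CPM in every library, to 4.56 to 5.88 CPM, 0.421 to 0.727 CPM and 1.25 to 1.83 CPM in these groups. Their part in the results was not tested. PRMT5 mRNA averaged 117 CPM in inhibitor-treated, 117 CPM in Pt-resistant and 121 CPM in naive cells and was called in no comparison.

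Complex I takes electrons from NADH and complex II takes them from succinate, and both pass them to ubiquinone. Complex III hands them on to cytochrome c and complex IV to oxygen, and the proton gradient built on the way drives the ATP synthase, complex V. Every complex except complex II combines subunits of both genomes. The mitochondrial genome is transcribed as long RNAs that are cut into single mRNAs, rRNAs and tRNAs, so its mRNAs share promoters, and their steady levels also depend on how long each of them lasts. MT-ND6 is the only mRNA encoded on the opposite strand to the rest. MT-ATP8 and MT-ATP6 are carried on the same mRNA, as are MT-ND4L and MT-ND4. Each of the 13 mitochondrial genes was counted apart and is called an mRNA here, so the 13 are not all separate RNAs.

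Some genes on this compact genome overlap, and the counting mode of the authors leaves out reads that fall on more than 1 gene. The longer stretches that adjoining genes share are shown because they bear on the counts of MT-ATP8 and MT-ND4L, with coordinates and sequence of GRCh38 and the start codon of the downstream gene in capitals.
MT-ATP8 and MT-ATP6 (chrM:8527-8572, plus strand): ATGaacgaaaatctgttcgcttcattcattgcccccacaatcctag
MT-ND4L and MT-ND4 (chrM:10760-10766, plus strand): ATGctaa
The first stretch covers 46 of the 207 bases of MT-ATP8, but the same bases are a small part of the 681 of MT-ATP6. The second covers 7 of the 297 bases of MT-ND4L. A read that touches a shared stretch with any of its bases is left out. More of each gene is therefore affected than the stretch itself, and this loss was not measured. MT-ATP6 and MT-CO3 also share 1 base, chrM:9207, which is not shown.

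The mitochondrial mRNAs took a smaller share of the counts in Pt-resistant libraries than in all others, while the groups overlapped for the nuclear members. Of all counts, the 13 mitochondrial mRNAs held 7.52%, 8.31% and 6.26% in inhibitor-treated, 5.19%, 4.45% and 4.78% in Pt-resistant and 5.97%, 7.57% and 7.82% in naive libraries. Every Pt-resistant library lay below every other, and inhibitor-treated and naive libraries overlapped. Nuclear members held 1.23% ± 0.078 in inhibitor-treated, 1.27% ± 0.092 in Pt-resistant and 1.28% ± 0.07 in naive libraries (mean ± SD, n = 3 each) of all counts. The ratio of mitochondrial to nuclear counts was 5.92, 7.29 and 4.88 in inhibitor-treated, 4.38, 3.26 and 3.78 in Pt-resistant and 4.48, 6.28 and 5.94 in naive libraries. In bulk RNA, fewer cells with a transcript and less of it per cell cannot be told apart, and the number of mitochondrial genomes was not measured.

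**Figure D1:**
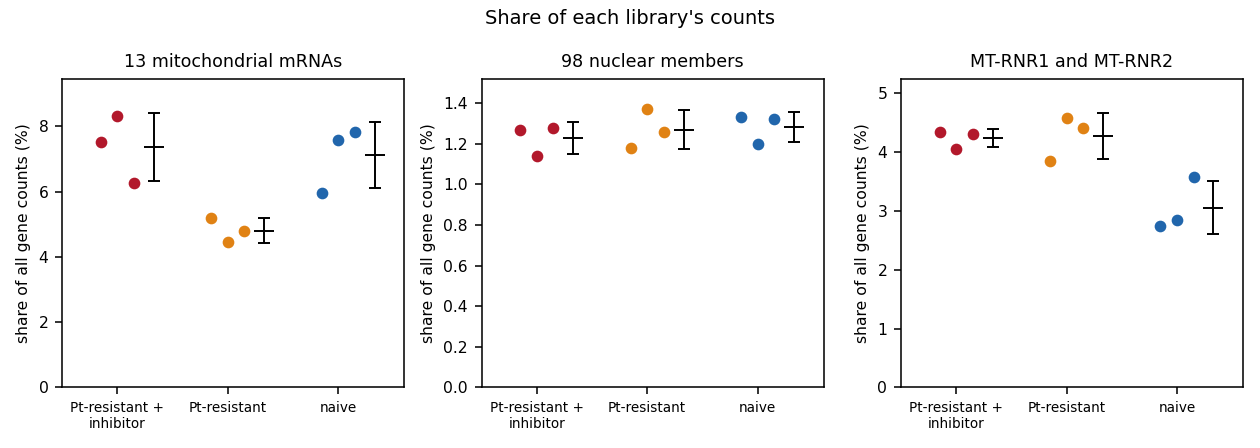
Share of all counts (%, y axis) held by the 13 mitochondrial mRNAs, the 98 nuclear members and the mitochondrial rRNAs in inhibitor-treated, Pt-resistant and naive libraries, with a point for each library and mean ± SD (n = 3) beside the points. The mitochondrial mRNAs lie at 6.26% to 8.31% in inhibitor-treated, 4.45% to 5.19% in Pt-resistant and 5.97% to 7.82% in naive libraries, and the nuclear members between 1.14% and 1.37% in all of them.

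The rRNAs of the same genome had another order of levels. MT-RNR1 and MT-RNR2, the small and large mitochondrial rRNA, together held 4.34%, 4.06% and 4.31% in inhibitor-treated, 3.84%, 4.58% and 4.41% in Pt-resistant and 2.75%, 2.85% and 3.57% in naive libraries, as shares of all counts. In Pt-resistant against naive cells MT-RNR1 rose by 1.04 ± 0.088 (adjusted p = 5.25e-10) and MT-RNR2 rose by 0.48 ± 0.11 (adjusted p = 0.00049), each given as the log2 fold change ± SE of edgeR's quasi-likelihood test, with Benjamini-Hochberg adjustment over all tested genes and a threshold of 0.05. In inhibitor-treated against Pt-resistant cells the values were 0.13 ± 0.087 (adjusted p = 0.213) and 0.01 ± 0.11 (adjusted p = 0.914). The ratio of mitochondrial mRNA to rRNA counts was 1.73, 2.05 and 1.45 in inhibitor-treated, 1.35, 0.973 and 1.08 in Pt-resistant and 2.17, 2.65 and 2.19 in naive libraries, with no overlap between the groups. Whether mRNA was enriched through poly(A) tails or by depletion of rRNA is not stated in the sources, and the part of that step in the rRNA counts was not tested.

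All 13 mitochondrial mRNAs passed the filter on low counts. With the inhibitor, relative to Pt-resistant cells, 10 were called higher and 0 lower, where 31.9% of the 14630 tested genes were higher and 30.5% lower. None was lower at an unadjusted p under 0.05 or by DESeq2 either. The median log2 fold change was 0.66 over the 13 and 0.006 over all tested genes. Relative to naive cells, in the Pt-resistant group, 1 was called higher and 10 lower, beside 29.8% higher and 29.4% lower of all tested genes, with medians of -0.48 and 0.01. Both comparisons use the same Pt-resistant libraries, on opposite sides, so their values are given side by side and are not independent of each other. In inhibitor-treated against naive cells, 5 were called higher and 1 lower, beside 32.2% higher and 31.2% lower of all tested genes, with medians of 0.15 and 0.001.

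**Figure D2:**
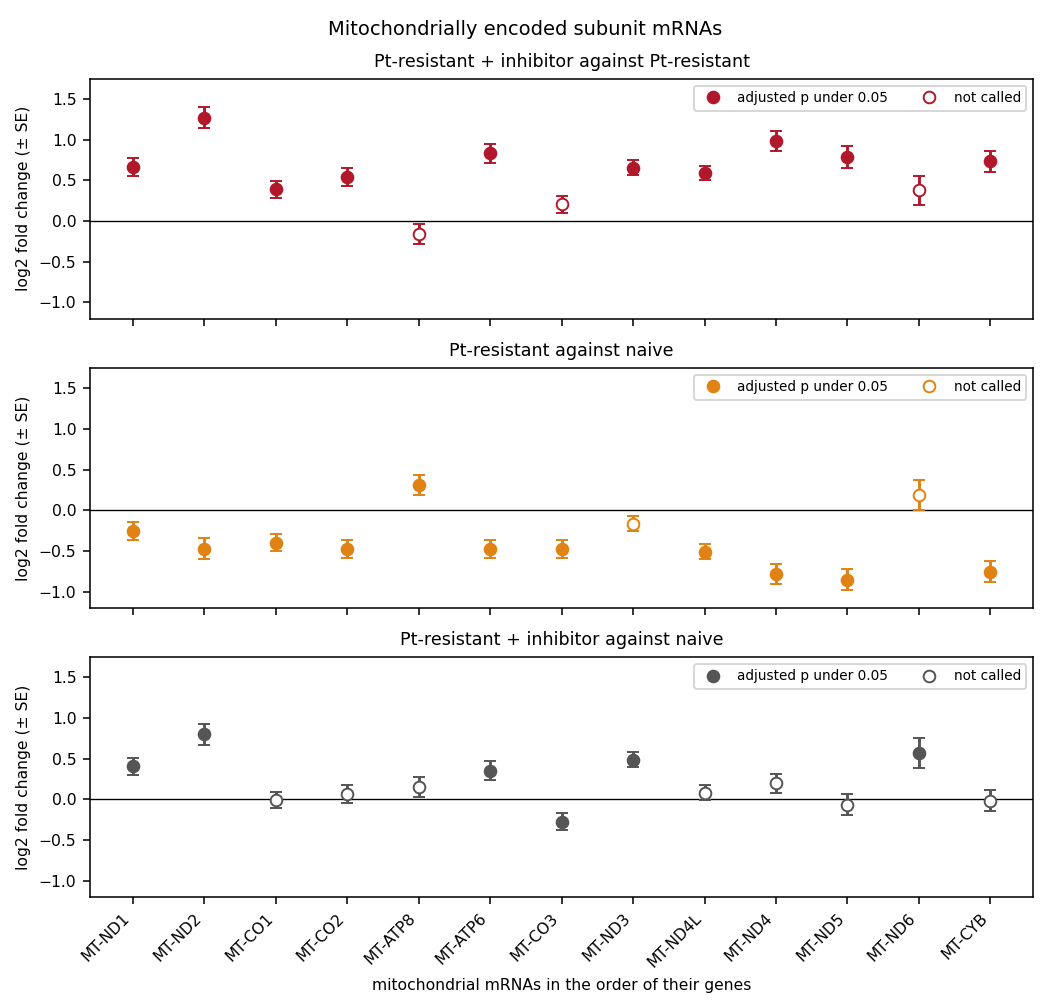
Log2 fold change (y axis, bars ± SE) of the 13 mitochondrial mRNAs in the order of their genes (x axis), in a panel for each comparison, with filled points for an adjusted p under 0.05. Values run from -0.16 (MT-ATP8) to 1.27 (MT-ND2) in inhibitor-treated against Pt-resistant cells, from -0.85 (MT-ND5) to 0.31 (MT-ATP8) in Pt-resistant against naive cells, and from -0.27 (MT-CO3) to 0.80 (MT-ND2) in inhibitor-treated against naive cells.

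Of the 7 complex I mRNAs of this genome, MT-ND2 (chrM:4470-5511), a proton-pumping subunit of the membrane arm, stood apart in inhibitor-treated cells. It was read at 4646, 5000.3 and 3395 CPM in inhibitor-treated, 2024, 1559 and 1818 CPM in Pt-resistant and 1951, 2748 and 2783 CPM in naive libraries. All inhibitor-treated libraries lay above all others. MT-ND2 rose by 1.27 ± 0.13 (adjusted p = 1.53e-08) against Pt-resistant cells, a fold of 2.41, and rose by 0.80 ± 0.13 (adjusted p = 1.12e-05) against naive cells, and it was the only mitochondrial mRNA past 2-fold in any of the 3 comparisons. It fell by 0.47 ± 0.13 (adjusted p = 0.00347) in Pt-resistant against naive cells, where the groups overlapped and DESeq2 gave an adjusted p of 0.0516.

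Nuclear copies of mitochondrial genes make this count uncertain, because 56.9% of the 31-base windows of MT-ND2 also occur in the transcript of another gene. Its copy MTND2P28 was counted at 226, 266 and 129 CPM in inhibitor-treated, 79.8, 53.5 and 78.9 CPM in Pt-resistant and 85.8, 149 and 156 CPM in naive libraries. Added to MT-ND2, the sums were 4872, 5266 and 3523 CPM in inhibitor-treated, 2104, 1612 and 1897 CPM in Pt-resistant and 2037, 2897 and 2940.0 CPM in naive libraries. In these sums, too, each inhibitor-treated library was above all others. Reads that map to both gene and copy were not counted for either, so the sums do not restore them.

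MT-ND4 (chrM:10760-12137) and MT-ND5 (chrM:12337-14148), the other large pumping subunits, had the lowest fold changes of the 13 in Pt-resistant against naive cells. MT-ND4 was read at 18079, 21259.8 and 15026 CPM in inhibitor-treated, 10013, 8459 and 9060.1 CPM in Pt-resistant and 12730.3, 16677 and 18091 CPM in naive libraries. MT-ND5 was read at 3555, 4481 and 2911 CPM in inhibitor-treated, 2313, 1899.5 and 2134 CPM in Pt-resistant and 2951, 4304 and 4199 CPM in naive libraries. For both genes each Pt-resistant library was below all others. In Pt-resistant against naive cells MT-ND4 fell by 0.79 ± 0.12 (adjusted p = 7.02e-06) and MT-ND5 fell by 0.85 ± 0.13 (adjusted p = 7.03e-06). In inhibitor-treated against Pt-resistant cells MT-ND4 rose by 0.98 ± 0.12 (adjusted p = 2.71e-07) and MT-ND5 rose by 0.79 ± 0.13 (adjusted p = 1.75e-05). Inhibitor-treated against naive cells gave 0.20 ± 0.12 (adjusted p = 0.168) for MT-ND4 and -0.07 ± 0.13 (adjusted p = 0.682) for MT-ND5. MT-ND4 was called there without naive replicate 3 (adjusted p = 0.0495) or inhibitor-treated replicate 3 (adjusted p = 0.03). Of their windows, 21.2% for MT-ND4 and 15.1% for MT-ND5 occur elsewhere.

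MT-ND1 (chrM:3307-4262), which forms part of the ubiquinone site, was read at 3649, 4197 and 3103 CPM in inhibitor-treated, 2572, 2162 and 2176 CPM in Pt-resistant and 2338, 3044 and 2879 CPM in naive libraries. It rose by 0.66 ± 0.11 (adjusted p = 1.18e-05) in inhibitor-treated against Pt-resistant cells, and the value against naive cells was 0.41 ± 0.11 (adjusted p = 0.00219). The lower level in Pt-resistant than in naive cells, -0.26 ± 0.11 (adjusted p = 0.0439), had overlapping groups and an adjusted p of 0.172 without naive replicate 2, 0.12 without naive replicate 3, 0.131 without Pt-resistant replicate 2, 0.141 without Pt-resistant replicate 3 and 0.0526 without inhibitor-treated replicate 1.

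MT-ND3 (chrM:10059-10404), a small membrane subunit, was read at 2855, 2506 and 2154 CPM in inhibitor-treated, 1574, 1569 and 1627 CPM in Pt-resistant and 1633, 1802 and 1915 CPM in naive libraries. It rose by 0.66 ± 0.093 (adjusted p = 1.61e-06) against Pt-resistant and rose by 0.49 ± 0.092 (adjusted p = 6.73e-05) against naive cells, and Pt-resistant against naive cells gave -0.17 ± 0.092 (adjusted p = 0.128). The inhibitor-treated libraries were above all others. MT-ND4L (chrM:10470-10766), whose end overlaps MT-ND4 as shown, was read at 1415, 1827 and 1676 CPM in inhibitor-treated, 1154, 1087 and 1022 CPM in Pt-resistant and 1436, 1613 and 1593 CPM in naive libraries. It rose by 0.59 ± 0.090 (adjusted p = 4.75e-06) in inhibitor-treated against Pt-resistant cells and fell by 0.51 ± 0.090 (adjusted p = 3.73e-05) in Pt-resistant against naive cells. All Pt-resistant libraries were below all others, as for MT-ND4, which is carried on the same mRNA.

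MT-ND6 (chrM:14149-14673, minus strand) was by far the lowest of the 13, at 43.8, 38.01 and 25.3 CPM in inhibitor-treated, 34.3, 21.4 and 26.8 CPM in Pt-resistant and 31.9, 17.5 and 22.4 CPM in naive libraries. All groups overlapped. It was called in inhibitor-treated against naive cells, at 0.57 ± 0.18 (adjusted p = 0.00967), but not without inhibitor-treated replicate 1 (adjusted p = 0.0892) nor by DESeq2 (adjusted p = 0.145). With the inhibitor, relative to Pt-resistant cells, it gave 0.38 ± 0.18 (adjusted p = 0.0719), with an adjusted p of 0.0078 without Pt-resistant replicate 1, 0.00816 without inhibitor-treated replicate 3, 0.0432 without naive replicate 1 and 0.0255 without naive replicate 2. Pt-resistant against naive cells gave 0.19 ± 0.18 (adjusted p = 0.397), called without naive replicate 1 (adjusted p = 0.045). The strand setting behind the counts is not stated in the sources, and if strand was not used, reads of MT-ND6 and of RNA from the opposite strand cannot be told apart.

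MT-CYB (chrM:14747-15887) encodes cytochrome b, the only mitochondrial subunit of complex III. It was read at 6666, 7593 and 5206 CPM in inhibitor-treated, 4305, 3451 and 3924 CPM in Pt-resistant and 5039.6, 7206 and 7464 CPM in naive libraries. Pt-resistant libraries lay below all others. MT-CYB rose by 0.74 ± 0.13 (adjusted p = 3.45e-05) in inhibitor-treated against Pt-resistant cells and fell by 0.76 ± 0.13 (adjusted p = 2.84e-05) in Pt-resistant against naive cells, and inhibitor-treated against naive cells gave -0.02 ± 0.13 (adjusted p = 0.912). Of its windows, 5.00% occur in another transcript.

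MT-CO1, MT-CO2 and MT-CO3 form the core of complex IV, where oxygen is reduced. MT-CO1 (chrM:5904-7445), which carries the heme-copper site, was read at 14344, 16899.7 and 12943 CPM in inhibitor-treated, 11895, 10996 and 10757 CPM in Pt-resistant and 12912, 15715 and 15788 CPM in naive libraries. MT-CO2 (chrM:7586-8269), which takes electrons from cytochrome c, was read at 6393, 6466 and 5398 CPM in inhibitor-treated, 4365, 3926 and 4248 CPM in Pt-resistant and 4636, 6084 and 6721 CPM in naive libraries. For both, Pt-resistant libraries were below all others. MT-CO1 rose by 0.39 ± 0.10 (adjusted p = 0.00192) and MT-CO2 rose by 0.54 ± 0.11 (adjusted p = 0.000137) in inhibitor-treated against Pt-resistant cells. Relative to naive cells, in the Pt-resistant group, MT-CO1 fell by 0.40 ± 0.10 (adjusted p = 0.00177) and MT-CO2 fell by 0.48 ± 0.11 (adjusted p = 0.000586). Counts of both are uncertain, since 66.7% of the windows of MT-CO1 and 50.5% of those of MT-CO2 occur in other transcripts.

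MT-CO3 (chrM:9207-9990) was read at 8808, 8552 and 7247 CPM in inhibitor-treated, 7337, 6709 and 7293 CPM in Pt-resistant and 7887, 10438 and 11406 CPM in naive libraries. It fell by 0.48 ± 0.11 (adjusted p = 0.000635) in Pt-resistant against naive cells. Inhibitor-treated and Pt-resistant libraries overlapped and gave 0.21 ± 0.11 (adjusted p = 0.106), a value called without naive replicate 1 (adjusted p = 0.0453) or inhibitor-treated replicate 3 (adjusted p = 0.0365). It was the only mitochondrial mRNA called lower in inhibitor-treated than in naive cells, at -0.27 ± 0.11 (adjusted p = 0.0333), and this call was lost without naive replicate 2 (adjusted p = 0.0896), naive replicate 3 (adjusted p = 0.223) or inhibitor-treated replicate 3 (adjusted p = 0.171). Of its windows, 45% occur elsewhere.

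MT-ATP6 (chrM:8527-9207), which forms the proton path of ATP synthase, was read at 6079, 6282 and 4595 CPM in inhibitor-treated, 3495, 2931 and 3091 CPM in Pt-resistant and 3703, 4630.5 and 4937 CPM in naive libraries. It rose by 0.83 ± 0.11 (adjusted p = 9.76e-07) in inhibitor-treated against Pt-resistant cells and fell by 0.48 ± 0.11 (adjusted p = 0.000837) in Pt-resistant against naive cells. The higher level in inhibitor-treated than in naive cells, 0.35 ± 0.11 (adjusted p = 0.0088), was lost without naive replicate 1 (adjusted p = 0.0752) or inhibitor-treated replicate 2 (adjusted p = 0.0575). Of its windows, 63.7% occur elsewhere, and its nuclear copy MTATP6P1 was counted at 986, 1048 and 929.7 CPM in inhibitor-treated, 675, 596 and 553 CPM in Pt-resistant and 723, 728 and 762 CPM in naive libraries. The sums of gene and copy were 7065, 7330.0 and 5525 CPM in inhibitor-treated, 4170.0, 3526 and 3644 CPM in Pt-resistant and 4426, 5359 and 5698 CPM in naive libraries, where each Pt-resistant library again was below all others. As for MT-ND2, these sums leave out reads that map to both gene and copy.

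MT-ATP8 (chrM:8366-8572), carried on the same mRNA as MT-ATP6, was read at 271, 311 and 241 CPM in inhibitor-treated, 381, 281 and 255.7 CPM in Pt-resistant and 299, 222 and 218 CPM in naive libraries. All groups overlapped, and inhibitor-treated against Pt-resistant cells gave -0.16 ± 0.13 (adjusted p = 0.288). Inhibitor-treated against naive cells gave 0.15 ± 0.13 (adjusted p = 0.299), called without naive replicate 1 (adjusted p = 0.0383). It was the only mitochondrial mRNA called higher in Pt-resistant than in naive cells, at 0.31 ± 0.13 (adjusted p = 0.0385), and this call did not hold without Pt-resistant replicate 1 (adjusted p = 0.41), naive replicate 2 (adjusted p = 0.125) or naive replicate 3 (adjusted p = 0.167), nor by DESeq2 (adjusted p = 0.278). At least 40% of its windows occur in other transcripts, so its count is uncertain. Reads that touch the stretch it shares with MT-ATP6, printed above, are not in its count, and the part of this in its values was not tested.

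The make-up of the pool of the 13 mRNAs was compared next. MT-ND4 held 23.5%, 24.9% and 23.5% in inhibitor-treated, 19.5%, 18.8% and 19.1% in Pt-resistant and 22.1%, 22.4% and 23.2% in naive libraries, as shares of the counts of the 13 mRNAs. MT-CO3 held 11.5%, 10.0% and 11.3% in inhibitor-treated, 14.3%, 14.9% and 15.4% in Pt-resistant and 13.7%, 14% and 14.6% in naive libraries. MT-ND2 held 6.05%, 5.85% and 5.31% in inhibitor-treated, 3.93%, 3.46% and 3.83% in Pt-resistant and 3.39%, 3.69% and 3.57% in naive libraries. MT-ND4 thus took its smallest share in Pt-resistant libraries, and in inhibitor-treated libraries MT-CO3 took its smallest and MT-ND2 its largest share, in each case with no overlap with the other groups. MT-CO1 held 18.7%, 19.8% and 20.2% in inhibitor-treated, 23.1%, 24.4% and 22.7% in Pt-resistant and 22.4%, 21.1% and 20.2% in naive libraries, highest in Pt-resistant libraries. Groups were also apart for genes not plotted. MT-ATP6 took its largest share in inhibitor-treated libraries, and MT-ND1 and MT-ND3 took their smallest in naive libraries. In Pt-resistant libraries MT-ND5 took its smallest and MT-ATP8 its largest share. Shares of MT-CO1, MT-CO3, MT-ND2, MT-ATP6 and MT-ATP8 rest on counts that shared windows make uncertain. As shares of a whole, a higher share of 1 gene lowers those of the rest.

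**Figure D3:**
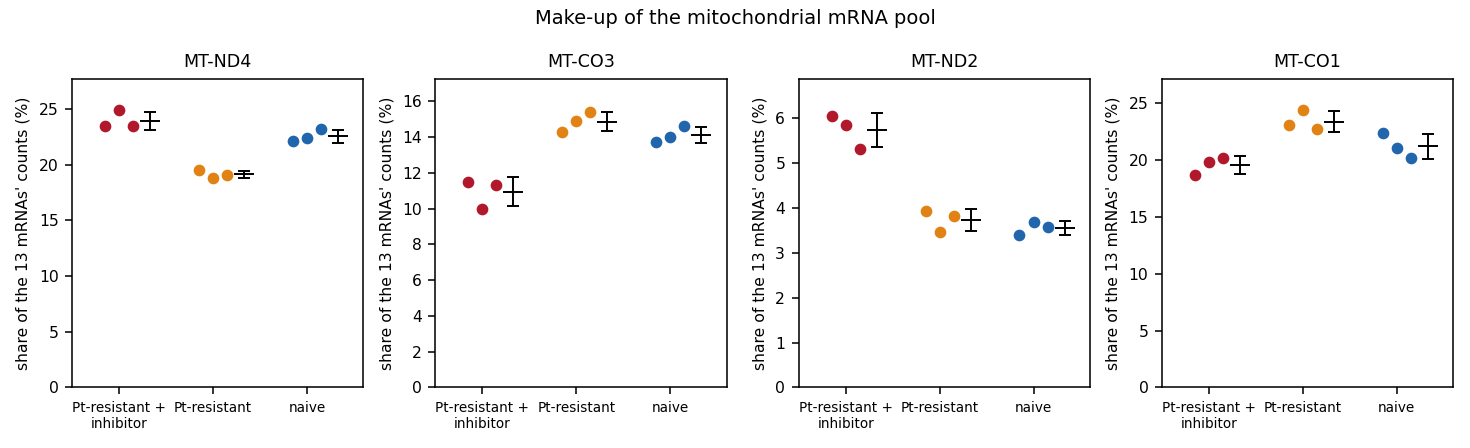
Share (%, y axis) of the counts of the 13 mitochondrial mRNAs held by the plotted genes in inhibitor-treated, Pt-resistant and naive libraries, with a point for each library and mean ± SD (n = 3) beside the points. MT-ND2 lies at 5.31% to 6.05% in inhibitor-treated, 3.46% to 3.93% in Pt-resistant and 3.39% to 3.69% in naive libraries, and MT-ND4 lies at 23.5% to 24.9%, 18.8% to 19.5% and 22.1% to 23.2% in these groups.

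Per length, mitochondrial mRNAs were far more abundant than nuclear ones. In inhibitor-treated cells the median level was 5687 CPM per kilobase over the 13 mRNAs and 85.1 CPM per kilobase over the 88 tested nuclear members, a ratio of 66.8. The ratio of these medians was 44.5 in Pt-resistant and 64.8 in naive cells. Reads that map to several places were not counted, so levels of members with many shared windows can be too low. The part of this in the ratios was not tested. MT-ND6 was the exception, at 68.0, 52.4 and 45.6 CPM per kilobase in inhibitor-treated, Pt-resistant and naive cells, below the nuclear median in each. The highest nuclear level per kilobase was that of ATP5F1B, the catalytic beta subunit of ATP synthase, at 816 CPM in inhibitor-treated, 901 CPM in Pt-resistant and 1022 CPM in naive cells.

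Of the 98 nuclear members, 88 passed the filter on low counts. The other 10 were COX4I2, COX6A2, COX6B2, COX7A1, COX7B2, COX8C, ATP5MGL, UQCRHL and the readthroughs ATP5MF-PTCD1 and NDUFC2-KCTD14. COX4I2, COX6A2 and COX8C had a count of 0 in every library, which allows up to 3 counts in each. NDUFC2-KCTD14 also had a count of 0 in every library. Reads on exons that a readthrough shares with other genes are left out by the counting, so this 0 says little about its level. The 6 COX genes among the 10 are forms of complex IV subunits that are known from particular tissues, such as COX6A2 and COX7A1 from heart and skeletal muscle. Their widely used partners COX4I1, COX6A1, COX6B1, COX7A2, COX7B and COX8A were all tested.

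Nuclear members moved in both directions. Of the 88 tested, 22 were called higher and 21 lower in inhibitor-treated against Pt-resistant cells, 25.0% and 23.9%, beside 31.9% and 30.5% of all tested genes, with a median of 0.003. In the Pt-resistant group, relative to naive cells, 21 were called higher and 13 lower, beside 29.8% and 29.4% of all tested genes, with a median of 0.04. The count of 13 lower was 8 without Pt-resistant replicate 3. In inhibitor-treated against naive cells 33 were called higher and 17 lower, beside 32.2% and 31.2%, with a median of 0.14. Regardless of sign, the median size of their log2 fold changes was 0.21 in inhibitor-treated against Pt-resistant, 0.18 in Pt-resistant against naive and 0.26 in inhibitor-treated against naive cells, beside 0.43, 0.39 and 0.44 over all tested genes. The members and all tested genes were not matched for count level, which bears on the size of fold changes.

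**Figure D4:**
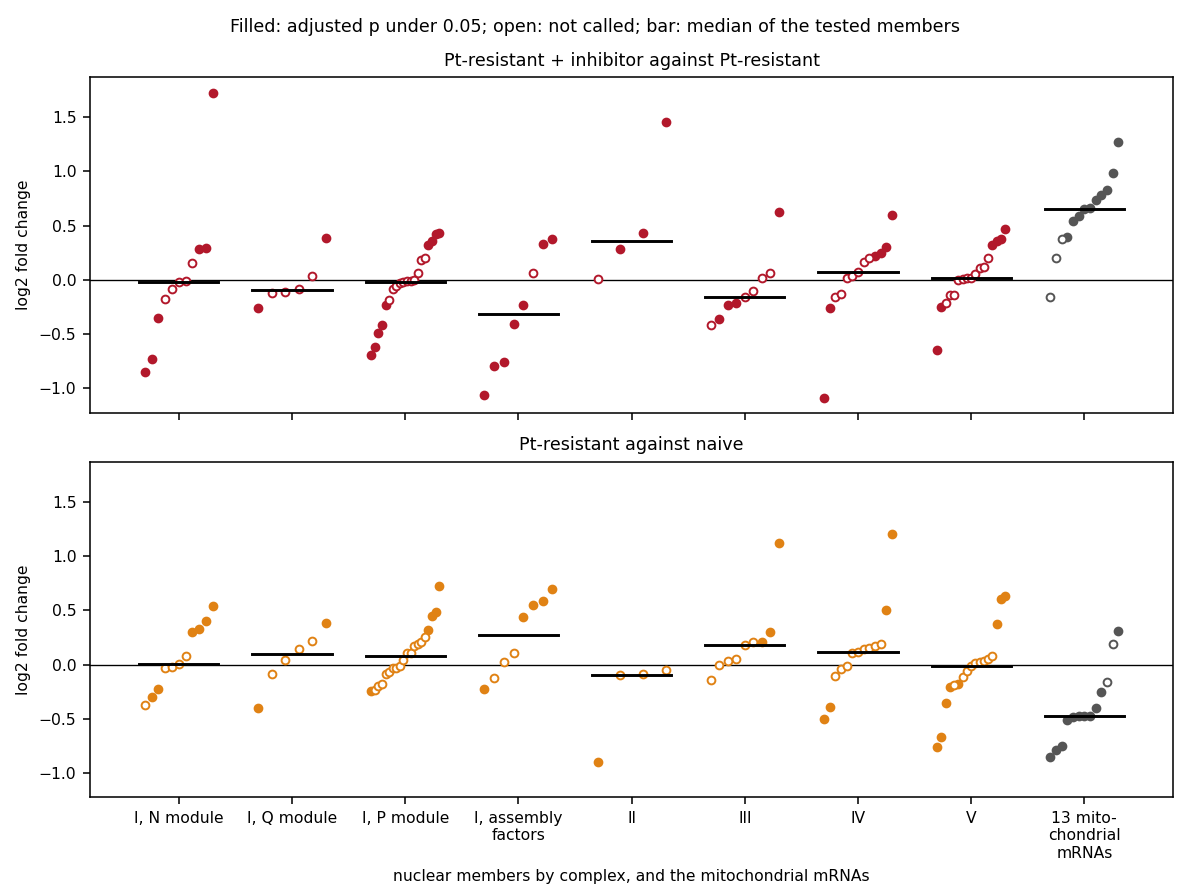
Log2 fold change (y axis) of each tested member by complex, with nuclear and mitochondrial genes apart (x axis), in inhibitor-treated against Pt-resistant cells and Pt-resistant against naive cells, with filled points for an adjusted p under 0.05 and bars at medians. The mitochondrial members have medians of 0.66 and -0.48, and all nuclear members together 0.003 and 0.04.

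Complex II, the wholly nuclear complex, had 3 higher and 0 lower of 4 in inhibitor-treated against Pt-resistant cells, beside 31.9% and 30.5% of all tested genes, and 0 lower also at an unadjusted p under 0.05 and by DESeq2. SDHA, the subunit that oxidises succinate, was read at 13.6, 12.3 and 11.97 CPM in inhibitor-treated, 3.73, 5.59 and 4.42 CPM in Pt-resistant and 9.71, 8.04 and 7.87 CPM in naive libraries. The 3 groups did not overlap. SDHA rose by 1.46 ± 0.15 (adjusted p = 1.07e-08) in inhibitor-treated against Pt-resistant cells and fell by 0.90 ± 0.15 (adjusted p = 2.63e-05) in Pt-resistant against naive cells. Its count is uncertain, at 62 to 230 counts per library, because 41.8% of its windows occur in other transcripts, SDHAP1 among them, and reads that map to several places were not counted.

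SDHD, a membrane anchor of complex II, was read at 112, 102 and 117 CPM in inhibitor-treated, 72.01, 93.2 and 81.03 CPM in Pt-resistant and 83.7, 78.8 and 101 CPM in naive libraries. SDHB, its iron-sulfur subunit, was read at 197, 178 and 196 CPM in inhibitor-treated, 146, 169.9 and 152 CPM in Pt-resistant and 174, 154 and 170.5 CPM in naive libraries. In both, the inhibitor-treated libraries were above all others. SDHD rose by 0.43 ± 0.097 (adjusted p = 0.000512) and SDHB rose by 0.29 ± 0.080 (adjusted p = 0.00328) in inhibitor-treated against Pt-resistant cells, and Pt-resistant against naive cells gave -0.10 ± 0.098 (adjusted p = 0.415) and -0.09 ± 0.080 (adjusted p = 0.342). SDHC, the other anchor, gave 0.01 ± 0.088 (adjusted p = 0.927) in inhibitor-treated against Pt-resistant and -0.05 ± 0.088 (adjusted p = 0.666) in Pt-resistant against naive cells.

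The 37 nuclear subunits of complex I had 8 higher and 9 lower (21.6% and 24.3%) in inhibitor-treated against Pt-resistant cells, beside 31.9% and 30.5% of all tested genes. They had 9 higher and 4 lower (24.3% and 10.8%) in Pt-resistant against naive cells, beside 29.8% and 29.4%. The N module, which oxidises NADH, had 3 higher and 3 lower of 11 (27.3% and 27.3%) in the first comparison, near the shares of all tested genes. NDUFV1, the subunit that binds NADH, was read at 118, 112 and 115 CPM in inhibitor-treated, 197, 197 and 176 CPM in Pt-resistant and 252, 210.1 and 205 CPM in naive libraries. NDUFV3, an accessory subunit beside it, was read at 61.9, 62.3 and 58.5 CPM in inhibitor-treated, 111, 112 and 105 CPM in Pt-resistant and 99.7, 115 and 96 CPM in naive libraries. The inhibitor-treated libraries were below all others for both. With the inhibitor, relative to Pt-resistant cells, NDUFV1 fell by 0.73 ± 0.084 (adjusted p = 7.98e-08) and NDUFV3 fell by 0.85 ± 0.081 (adjusted p = 4.01e-09). In Pt-resistant against naive cells NDUFV3 gave 0.08 ± 0.079 (adjusted p = 0.386), and the value of NDUFV1, -0.23 ± 0.083 (adjusted p = 0.0215), was not called without naive replicate 1 (adjusted p = 0.196) or Pt-resistant replicate 3 (adjusted p = 0.117).

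NDUFS1, the largest iron-sulfur subunit of the module, fell by 0.35 ± 0.087 (adjusted p = 0.00114) in inhibitor-treated against Pt-resistant cells and rose by 0.30 ± 0.087 (adjusted p = 0.00448) in Pt-resistant against naive cells. NDUFS4, an accessory subunit, rose by 0.61 ± 0.11 (adjusted p = 2.43e-05) in inhibitor-treated against naive cells. NDUFV2, a conserved iron-sulfur subunit, had only 6 to 31 counts per library, with 82.3% of its windows found elsewhere, so its value of 1.73 ± 0.35 (adjusted p = 0.000169) in inhibitor-treated against Pt-resistant cells is uncertain. NDUFA7, with 6 to 22 counts and 81.8% of windows shared, was called in no comparison.

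In the membrane arm of complex I, NDUFB6 was read at 87.4, 74.02 and 86.7 CPM in inhibitor-treated, 49.9, 71.1 and 62.8 CPM in Pt-resistant and 55.5, 43.4 and 59.7 CPM in naive libraries. It rose by 0.43 ± 0.11 (adjusted p = 0.00203) against Pt-resistant and rose by 0.64 ± 0.12 (adjusted p = 3.44e-05) against naive cells in the inhibitor-treated group, which lay above both. Pt-resistant against naive cells gave 0.21 ± 0.12 (adjusted p = 0.12), called without naive replicate 3 (adjusted p = 0.043) or Pt-resistant replicate 1 (adjusted p = 0.0113). NDUFA8, a subunit on the intermembrane side, was read at 106, 86.7 and 96.5 CPM in inhibitor-treated, 93.95, 104 and 90.5 CPM in Pt-resistant and 62.7, 55.9 and 56.7 CPM in naive libraries. The naive libraries were below all others. NDUFA8 rose by 0.72 ± 0.087 (adjusted p = 1.87e-07) in Pt-resistant against naive cells, and inhibitor-treated against Pt-resistant cells gave 0.003 ± 0.085 (adjusted p = 0.977), with a 95% interval of -0.16 to 0.17. NDUFA11 fell by 0.69 ± 0.093 (adjusted p = 8.26e-07) in inhibitor-treated against Pt-resistant cells, but 65.2% of its windows occur in an overlapping gene that has no name in the files. In all, 23 members shared at least 40% of their windows with other genes.

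The 8 NDUFAF assembly factors of complex I had 2 higher and 5 lower in inhibitor-treated against Pt-resistant cells, beside 31.9% and 30.5% of all tested genes, and 4 higher and 1 lower in Pt-resistant against naive cells, beside 29.8% and 29.4%. NDUFAF4 was read at 43.99, 38.4 and 49.9 CPM in inhibitor-treated, 70.3, 81.7 and 76.9 CPM in Pt-resistant and 44.2, 45.99 and 51.1 CPM in naive libraries. NDUFAF3, which acts with it early in assembly, was read at 29.5, 29.4 and 29.7 CPM in inhibitor-treated, 64.4, 65 and 55.9 CPM in Pt-resistant and 69.2, 67.1 and 65.5 CPM in naive libraries. NDUFAF4 was highest in Pt-resistant libraries and NDUFAF3 lowest in inhibitor-treated libraries, both with no overlap. In inhibitor-treated against Pt-resistant cells NDUFAF4 fell by 0.79 ± 0.094 (adjusted p = 1.22e-07) and NDUFAF3 fell by 1.06 ± 0.084 (adjusted p = 1.46e-10). Relative to naive cells, in the Pt-resistant group, NDUFAF4 rose by 0.70 ± 0.094 (adjusted p = 8.67e-07), and NDUFAF3 gave -0.12 ± 0.080 (adjusted p = 0.19).

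NDUFAF7, an arginine methyltransferase of the mitochondrial matrix, was read at 16.2, 15.03 and 19 CPM in inhibitor-treated, 28.6, 27.5 and 28.7 CPM in Pt-resistant and 18.2, 19.4 and 20.5 CPM in naive libraries. It fell by 0.75 ± 0.10 (adjusted p = 7.36e-07) in inhibitor-treated against Pt-resistant cells and rose by 0.55 ± 0.10 (adjusted p = 5.13e-05) in Pt-resistant against naive cells, and Pt-resistant libraries were above all others. NDUFAF2 also fell by 0.40 ± 0.10 (adjusted p = 0.0013) and rose by 0.58 ± 0.10 (adjusted p = 3.11e-05) in these comparisons, with 46.3% of its windows shared. NDUFAF1 went the other way with the inhibitor and rose by 0.38 ± 0.10 (adjusted p = 0.00257).

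In complex III, of 9 tested nuclear subunits, 1 was called higher and 3 lower (11.1% and 33.3%) in inhibitor-treated against Pt-resistant cells, beside 31.9% and 30.5% of all tested genes. In Pt-resistant against naive cells 3 were called higher and 0 lower, beside 29.8% and 29.4% of all tested genes, with 0 lower also at an unadjusted p under 0.05 and by DESeq2. UQCR10, a small subunit, was read at 98.2, 87.6 and 94.05 CPM in inhibitor-treated, 55.6, 64.1 and 61.8 CPM in Pt-resistant and 62.1, 54.9 and 65.6 CPM in naive libraries. It rose by 0.62 ± 0.085 (adjusted p = 9.19e-07) in the inhibitor-treated group, whose libraries were above all others, and Pt-resistant against naive cells gave -0.008 ± 0.086 (adjusted p = 0.941). UQCRC2, a core subunit, fell by 0.36 ± 0.085 (adjusted p = 0.000872) in inhibitor-treated against Pt-resistant cells and rose by 0.30 ± 0.085 (adjusted p = 0.00393) in Pt-resistant against naive cells. UQCRH, the hinge subunit, had only 14 to 59 counts per library and shared 43.9% of its windows, so its value of 1.12 ± 0.28 (adjusted p = 0.00145) in Pt-resistant against naive cells is uncertain.

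In complex IV, of 13 tested nuclear members, 4 were called higher and 2 lower (30.8% and 15.4%) in inhibitor-treated against Pt-resistant cells, beside 31.9% and 30.5% of all tested genes, and 2 higher and 2 lower (15.4% and 15.4%) in Pt-resistant against naive cells, beside 29.8% and 29.4%. COX6A1, the common form beside the muscle form COX6A2, was read at 79.3, 64.5 and 70.6 CPM in inhibitor-treated, 41.8, 51.1 and 48.8 CPM in Pt-resistant and 62.7, 63.9 and 74.8 CPM in naive libraries. Its Pt-resistant libraries were below all others, and 49.4% of its windows are shared. COX6A1 rose by 0.60 ± 0.096 (adjusted p = 9.16e-06) in inhibitor-treated against Pt-resistant cells and fell by 0.51 ± 0.096 (adjusted p = 8.24e-05) in Pt-resistant against naive cells. COX5A fell by 0.40 ± 0.085 (adjusted p = 0.000329) and COX7A2L, which joins complexes III and IV into supercomplexes, rose by 0.51 ± 0.077 (adjusted p = 5.14e-06) in Pt-resistant against naive cells. With the inhibitor, COX4I1 rose by 0.30 ± 0.086 (adjusted p = 0.00381), while COX5A gave 0.01 ± 0.085 (adjusted p = 0.896).

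NDUFA4L2 is counted here with its relative NDUFA4, which belongs to complex IV despite its name. NDUFA4L2, known as a gene induced by hypoxia-inducible factor, was read at a low 2.66, 2.61 and 2.14 CPM in inhibitor-treated, 5.65, 5.00 and 5.09 CPM in Pt-resistant and 1.88, 2.34 and 2.65 CPM in naive libraries. Every Pt-resistant library was above every other. NDUFA4L2 fell by 1.08 ± 0.19 (adjusted p = 2.61e-05) in inhibitor-treated against Pt-resistant cells and rose by 1.20 ± 0.19 (adjusted p = 9.58e-06) in Pt-resistant against naive cells, a fold of 2.3. NDUFA4 gave 0.17 ± 0.10 (adjusted p = 0.169) and 0.17 ± 0.10 (adjusted p = 0.179) in these comparisons, and the second value was called without naive replicate 3 (adjusted p = 0.0105).

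**Figure D5:**
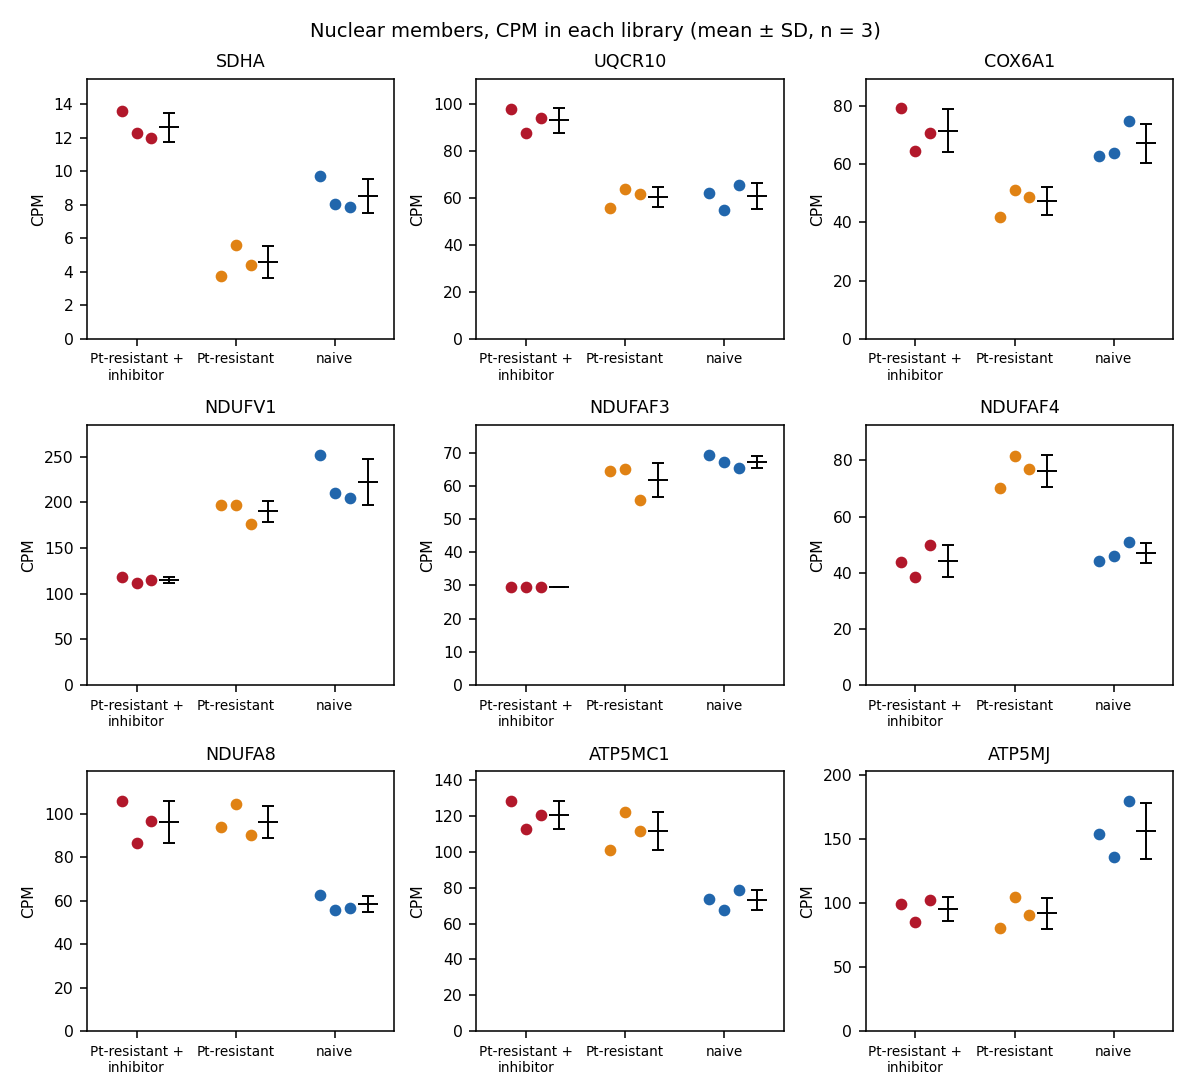
CPM (y axis, from 0) of the plotted nuclear members in inhibitor-treated, Pt-resistant and naive libraries, with a point for each library and mean ± SD (n = 3) beside the points. SDHA is lowest in Pt-resistant libraries, at 3.73 to 5.59 CPM, NDUFAF4 highest there, at 70.3 to 81.7 CPM, and NDUFV1 lowest in inhibitor-treated libraries, at 112 to 118 CPM.

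In complex V, of 17 tested nuclear subunits, 4 were called higher and 2 lower (23.5% and 11.8%) in inhibitor-treated against Pt-resistant cells, beside 31.9% and 30.5% of all tested genes, and 3 higher and 5 lower (17.6% and 29.4%) in Pt-resistant against naive cells, beside 29.8% and 29.4%. ATP5MJ, a small membrane subunit, was read at 99.1, 85.1 and 102 CPM in inhibitor-treated, 80.5, 104 and 91.05 CPM in Pt-resistant and 154, 136 and 179 CPM in naive libraries. ATP5MC1, which is 1 of 3 genes for the c subunit of the rotating ring, was read at 128, 113 and 120.4 CPM in inhibitor-treated, 101, 122 and 112 CPM in Pt-resistant and 73.8, 67.5 and 78.4 CPM in naive libraries. Naive libraries were above all others for ATP5MJ and below all others for ATP5MC1. ATP5MJ fell by 0.77 ± 0.10 (adjusted p = 7.36e-07) and ATP5MC1 rose by 0.61 ± 0.086 (adjusted p = 1.77e-06) in Pt-resistant against naive cells, while the other c subunit genes ATP5MC2 and ATP5MC3 gave 0.06 ± 0.085 (adjusted p = 0.596) and 0.01 ± 0.086 (adjusted p = 0.889). ATP5PD, of the peripheral stalk, rose by 0.63 ± 0.11 (adjusted p = 2.48e-05) in the same comparison.

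ATP5F1D, of the central stalk, was read at 20.7, 17.4 and 15.2 CPM in inhibitor-treated, 26.6, 30.99 and 25.97 CPM in Pt-resistant and 34.4, 26.2 and 29.99 CPM in naive libraries. It fell by 0.65 ± 0.12 (adjusted p = 5.01e-05) in inhibitor-treated against Pt-resistant cells, where inhibitor-treated libraries were below all others. ATP5MF and ATP5PF went the other way. ATP5MF, of the membrane part, rose by 0.47 ± 0.097 (adjusted p = 0.000186) and ATP5PF, of the peripheral stalk, rose by 0.36 ± 0.077 (adjusted p = 0.000337) in inhibitor-treated against Pt-resistant cells. In Pt-resistant against naive cells ATP5MF fell by 0.67 ± 0.097 (adjusted p = 2.71e-06) and ATP5PF fell by 0.36 ± 0.078 (adjusted p = 0.000345). For ATP5MF, 57.5% of the windows are shared.

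Nuclear genes that transcribe and handle mitochondrial RNA were followed as a list of 30, of which 29 were tested. FASTKD4 matched no gene under that symbol, and TWNK is also in the list for DNA maintenance. With the inhibitor, relative to Pt-resistant cells, 2 were called higher and 16 lower, beside 31.9% and 30.5% of all tested genes, with medians of -0.28 over the list and 0.006 over all tested genes. In the Pt-resistant group, relative to naive cells, 13 higher and 3 lower were called, beside 29.8% and 29.4%, with medians of 0.14 and 0.01. POLRMT, the mitochondrial RNA polymerase, was read at 55.3, 49.2 and 54.2 CPM in inhibitor-treated, 54.04, 54.04 and 61.1 CPM in Pt-resistant and 34.7, 35.1 and 33.01 CPM in naive libraries. TFB2M, which opens the promoter for it, was read at 78.04, 67.9 and 74.99 CPM in inhibitor-treated, 104, 102 and 108 CPM in Pt-resistant and 54.9, 70.3 and 64.2 CPM in naive libraries. Relative to naive cells, in the Pt-resistant group, POLRMT rose by 0.72 ± 0.085 (adjusted p = 1.23e-07) and TFB2M rose by 0.73 ± 0.087 (adjusted p = 1.54e-07). In inhibitor-treated against Pt-resistant cells POLRMT gave -0.09 ± 0.083 (adjusted p = 0.34), TFB2M fell by 0.51 ± 0.087 (adjusted p = 2.14e-05), and LRPPRC, which stabilises mitochondrial mRNAs, fell by 0.50 ± 0.074 (adjusted p = 3.31e-06). FASTK, which is needed for MT-ND6 mRNA, fell by 0.81 ± 0.073 (adjusted p = 1.5e-09) there.

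Of 15 genes that maintain mitochondrial DNA, 5 were called higher and 7 lower (33.3% and 46.7%) in inhibitor-treated against Pt-resistant cells, beside 31.9% and 30.5% of all tested genes, and 2 higher and 3 lower in Pt-resistant against naive cells, beside 29.8% and 29.4%. TOP1MT, the mitochondrial topoisomerase, was read at 51.3, 52.3 and 53.01 CPM in inhibitor-treated, 34.3, 32.2 and 33.5 CPM in Pt-resistant and 61.02, 54.4 and 52.4 CPM in naive libraries. It rose by 0.65 ± 0.083 (adjusted p = 4.21e-07) and fell by 0.75 ± 0.083 (adjusted p = 4.85e-08) in these comparisons. POLG, the DNA polymerase, rose by 0.75 ± 0.086 (adjusted p = 6.45e-08), and TWNK, the helicase, fell by 0.66 ± 0.11 (adjusted p = 2.17e-05) in inhibitor-treated against Pt-resistant cells. TFAM, which packs this DNA and was counted in the list for transcription and RNA handling, gave 0.11 ± 0.082 (adjusted p = 0.258).

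Assembly factors outside the NDUFAF genes had 9 higher and 20 lower of 45 for complexes II to V and 3 higher and 7 lower of 13 for complex I in inhibitor-treated against Pt-resistant cells, beside 31.9% and 30.5% of all tested genes. COA1 is in both lists. In the Pt-resistant group, relative to naive cells, these lists had 14 higher and 5 lower and 5 higher and 4 lower, beside 29.8% and 29.4%. COX20, a chaperone of the MT-CO2 protein, was read at 9.59, 12.5 and 11.9 CPM in inhibitor-treated, 46.5, 51.2 and 48.7 CPM in Pt-resistant and 20.7, 20.6 and 23.6 CPM in naive libraries. It fell by 2.11 ± 0.10 (adjusted p = 6.2e-14) and rose by 1.17 ± 0.098 (adjusted p = 4.26e-10) in these comparisons, and Pt-resistant libraries were above all others. LYRM7, which helps insert the iron-sulfur protein of complex III, fell by 1.15 ± 0.093 (adjusted p = 2.48e-10) in inhibitor-treated against Pt-resistant cells. TMEM126A, of complex I assembly, rose by 1.19 ± 0.10 (adjusted p = 6.55e-10) in Pt-resistant against naive cells. CYCS, cytochrome c, fell by 0.27 ± 0.083 (adjusted p = 0.00605) and rose by 0.45 ± 0.083 (adjusted p = 5.45e-05) in these comparisons.

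Of 12 regulators of nuclear respiratory genes, 1 was called higher and 7 lower in inhibitor-treated against Pt-resistant cells, beside 31.9% and 30.5% of all tested genes, and 4 higher and 4 lower (33.3% and 33.3%) in Pt-resistant against naive cells, beside 29.8% and 29.4%. PPARGC1A, a coactivator that drives mitochondrial biogenesis, was read at 5.21, 6.21 and 4.35 CPM in inhibitor-treated, 8.12, 8.04 and 8.88 CPM in Pt-resistant and 16.4, 21.4 and 17.01 CPM in naive libraries. The 3 groups did not overlap, and it fell by 0.67 ± 0.15 (adjusted p = 0.000525) in the first and fell by 1.12 ± 0.13 (adjusted p = 1.2e-07) in the second comparison. NRF1, which binds many respiratory promoters, fell by 0.60 ± 0.11 (adjusted p = 5.49e-05) with the inhibitor and gave 0.01 ± 0.11 (adjusted p = 0.94) in Pt-resistant against naive cells. GABPB1, part of the ETS family factor GABP, fell by 0.30 ± 0.084 (adjusted p = 0.00362) and rose by 0.52 ± 0.085 (adjusted p = 1.29e-05) in these comparisons. GABPA, another part of GABP, gave -0.02 ± 0.09 (adjusted p = 0.879) and rose by 0.38 ± 0.092 (adjusted p = 0.000935) in them. YY1 fell by 0.31 ± 0.072 (adjusted p = 0.000715) and fell by 0.19 ± 0.072 (adjusted p = 0.0257). Its second call was lost without naive replicate 1 (adjusted p = 0.101), Pt-resistant replicate 2 (adjusted p = 0.0689) or Pt-resistant replicate 3 (adjusted p = 0.0758).

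Promoters of the nuclear members were searched for the letters that such factors are known to bind, in RefSeq sequences of GRCh38.p14 from 250 bases before to 50 bases after the start of each gene, on both strands. Of the 98 nuclear members 77 had a promoter in the table. The NRF1 letters GCGCATGCG were found in 14.3% of these and in 2.1% of all 27305 promoters. The ETS letters CCGGAAG were found in 27.3% and 10.7%, and the YY1 letters AAGATGGCG in 10.4% and 1.85%. At least 1 of the motifs was in 13.6% of all promoters and in 33 of the 72 tested members with a promoter, 45.8%. In inhibitor-treated against Pt-resistant cells the counts were 12 of 18 matched members called higher, 7 of 19 called lower and 14 of 35 not called. The counts were, in Pt-resistant against naive cells, 8 of 19 called higher, 2 of 10 called lower and 23 of 43 not called. These shares describe letters only and were not tested.

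The promoters of SDHD, higher in inhibitor-treated cells, of NDUFA8, lowest in naive cells, and of NDUFAF4, highest in Pt-resistant cells, are shown as examples of the motifs in members of different pattern, with matched letters in capitals.
SDHD (chr11:112086623-112086922, plus strand): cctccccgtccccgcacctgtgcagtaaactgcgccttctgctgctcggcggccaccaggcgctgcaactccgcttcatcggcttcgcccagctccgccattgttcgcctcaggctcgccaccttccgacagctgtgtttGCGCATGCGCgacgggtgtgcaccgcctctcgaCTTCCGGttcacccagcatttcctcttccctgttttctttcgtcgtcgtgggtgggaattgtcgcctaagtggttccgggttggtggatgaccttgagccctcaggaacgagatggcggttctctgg
NDUFA8 (chr9:122159730-122160029, minus strand): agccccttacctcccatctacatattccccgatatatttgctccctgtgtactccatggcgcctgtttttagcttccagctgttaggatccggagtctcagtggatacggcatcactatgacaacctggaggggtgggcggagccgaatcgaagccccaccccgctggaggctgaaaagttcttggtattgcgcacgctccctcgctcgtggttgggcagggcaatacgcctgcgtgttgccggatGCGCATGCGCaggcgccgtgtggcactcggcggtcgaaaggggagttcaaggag
NDUFAF4 (chr6:96897842-96898141, minus strand): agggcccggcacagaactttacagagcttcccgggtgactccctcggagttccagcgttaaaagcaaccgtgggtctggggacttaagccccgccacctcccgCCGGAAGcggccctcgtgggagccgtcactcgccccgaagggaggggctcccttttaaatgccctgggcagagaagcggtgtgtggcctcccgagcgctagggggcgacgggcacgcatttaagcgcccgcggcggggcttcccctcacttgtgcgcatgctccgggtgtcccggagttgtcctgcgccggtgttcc
In SDHD and NDUFA8 the NRF1 letters occur on both strands in overlapping positions and appear as a single run of capitals. SDHD also holds the ETS letters, on the minus strand of the printed sequence, and NDUFAF4 holds the ETS letters alone. The promoters of NDUFAF3, ATP5MC1, UQCR10, NDUFV1 and NDUFV3, members described above, held none of the 3 motifs in this window.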

How the data were processed

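RNA of the 9 wells was made into directional libraries, and per the labels and the methods of the study the authors used FastQC for quality control and STAR for alignment and for gene counts, a mode that drops multi-mapped reads and those on more than 1 gene. The deposited values are raw counts of 61487 Ensembl genes. The genome build, annotation, tool versions and strand column are not stated for these libraries in the sources. A telomere-to-telomere build is named there for chromatin accessibility reads, and ChIP reads are said to have gone through a similar pipeline. Coordinates given are those of GRCh38, from the annotation used here. The authors tested with DESeq2.

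Symbols came from a gene name table (61369 IDs) and from GENCODE 29 (105 IDs), and 13 IDs had none. All libraries were fitted together with edgeR 4.0.16 (R 4.3.3). Genes passing filterByExpr with a minimum count of 10 (14630 genes, 99.88% of counts) were tested with TMM scaling, the quasi-likelihood test, Benjamini-Hochberg adjustment over all tested genes and a threshold of 0.05. CPM are relative to TMM-scaled totals. The test gives no SE, so the SE was derived from the fold change and the F statistic. The 95% interval was taken from this SE by a normal approximation. No test was run on sums over members. The code was tested on simulated data. The principal GENCODE 29 transcript of each member was cut into windows of 31 bases. Windows that occur, on either strand, in an annotated transcript of another gene were counted as shared. Copies without an annotated transcript were not searched.

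All 13 mitochondrial members and the 4 SDH genes were named by rule, with, per comparison and direction, the 6 nuclear members of largest fold among those with an adjusted p under 0.05, at least 5 CPM in the higher group and no overlap. Genes named beyond these belong to fixed lists of complexes, isoform partners, RNA handling, DNA maintenance, assembly and regulators, or were chosen after their values were seen, as were NDUFS1, UQCRC2 and NDUFV2. Several genes named from the fixed lists had the most extreme fold change of their list in a comparison. COX20, TMEM126A, TFB2M, TOP1MT and PPARGC1A are among these and do not stand for their whole list. Members and lists were chosen with earlier results of these data known.

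Alternatives were RLE scaling, library size alone, scaling without mitochondrial genes, DESeq2 1.42.0, limma-voom (limma 3.58.1), no filter, a filter at 1 CPM in 3 libraries, fits of only the groups compared, a replicate block, a fold of at least 2, leaving out each library and, for shares, totals without mitochondrial rRNA and tRNA or of protein-coding genes. Added after seeing the data were counts of members with under 40% of windows shared and counts without NDUFAF genes. The values of 1 member are not reported here.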

Additional observations from a re-analysis of the deposited data

How the results depend on the processing

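Of 4967 log2 fold changes recomputed for 92 genes under the alternatives, 0 reversed a called direction. Of them 4800 kept their side of the threshold, 122 lost the call and 45 gained one. Requiring a fold of at least 2 left 1 mitochondrial mRNA higher and 2 nuclear members higher and 2 lower in inhibitor-treated against Pt-resistant cells, 0 mitochondrial mRNAs higher or lower and 2 nuclear members higher and 0 lower in Pt-resistant against naive cells, and 0 mitochondrial mRNAs either way and 1 nuclear member higher and 1 lower in inhibitor-treated against naive cells. Counting only members with under 40% of windows shared, an alternative chosen after seeing the data, left 6 of 7 mitochondrial mRNAs higher in inhibitor-treated against Pt-resistant cells, 5 lower and 0 higher in Pt-resistant against naive cells, and 3 higher and 0 lower in inhibitor-treated against naive cells. The single mRNA higher in Pt-resistant against naive cells became 0 with library size alone, DESeq2 or only the groups compared. Without NDUFAF genes, also chosen after seeing the data, nuclear members counted 20 higher and 16 lower in inhibitor-treated against Pt-resistant cells, 17 and 12 in Pt-resistant against naive cells, and 32 and 16 in inhibitor-treated against naive cells. Leaving out each library gave, in inhibitor-treated against Pt-resistant cells, 10 to 12 mitochondrial mRNAs higher and 18 to 25 nuclear members higher and 15 to 24 lower. In Pt-resistant against naive cells it gave 0 to 2 mitochondrial mRNAs higher and 9 to 10 lower, and 18 to 29 nuclear members higher and 8 to 16 lower. In inhibitor-treated against naive cells it gave 4 to 6 mitochondrial mRNAs higher and 0 to 1 lower, and 25 to 38 nuclear members higher and 14 to 19 lower. Mean shares of the mitochondrial mRNAs ranged over 6.89% to 7.92% in inhibitor-treated, 4.61% to 4.98% in Pt-resistant and 6.77% to 7.70% in naive cells. The cause of these differences was not tested.

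Replicate numbers are shared by the groups, but same-numbered libraries deviated together by correlations of only -0.076 to 0.10, so they share only a number. With a replicate block the 1 mitochondrial mRNA lower in inhibitor-treated against naive cells became 0, and no other count of members moved by over 1.5 times. Among the 92 genes, the block took the calls of MT-ND1 in Pt-resistant against naive cells (adjusted p = 0.057) and of MT-CO3 in inhibitor-treated against naive cells (adjusted p = 0.0592) and gave a call to MT-ND6 in inhibitor-treated against Pt-resistant cells (adjusted p = 0.0225), and it changed no other call. Among the tested members, NDUFA7, NDUFV2, UQCRH, NDUFA4L2 and SDHA had the lowest counts, and depth limits what they can show.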
